A study of Mus musculus with 8 samples.

Results

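The loss of Notum was examined in molar tooth germs at the bell stage, E16.5 (embryonic day), by comparing 2 RNA libraries of Notum-/- embryos with 2 of Notum+/+ embryos, to ask what the germ expressed differently without this protein. The other 4 of the 8 libraries came from E14.5 embryos, 2 of each genotype, and serve below for the comparison between the ages. The genes described were the protein-coding genes outside the X, Y and mitochondrial chromosomes with a mean over 1 FPKM in these 4 libraries, where FPKM is fragments per kilobase of gene scaled for library depth. They numbered 12183 of 20902 protein-coding genes of the autosomes. Since the mean was taken over both genotypes, a gene could enter through the genotype in which it was high, as Fgf20 did through Notum-/- and Nefh through Notum+/+ libraries (both described below). Upk1b (1.001 FPKM) lay just inside the limit and 2900011O08Rik (0.998 FPKM) just outside. The Notum-/- mice carried the Notum em1(IMPC)Tcp allele, a constitutive knockout made on the C57BL/6N background and bred further with C57BL/6N mice, and the Notum+/+ embryos were their littermates. Both maxillary and mandibular tooth germs were used, each biological replicate is given as n = 3 in the methods, and embryos were used without regard to sex, with both sexes stated to be present in every group. Each library therefore mixes the dental epithelium, the dental papilla, the follicle and whatever tissue adhered to the germ, and in such samples fewer cells of a type and less RNA per cell cannot be told apart.

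Notum is a secreted carboxylesterase that removes the palmitoleate group from Wnt proteins, without which they cannot bind Frizzled receptors, so it acts as an inhibitor of Wnt signaling outside the cell. Its gene is itself switched on by Wnt/beta-catenin signaling, which makes it a negative feedback regulator, like Axin2, Dkk1 and Dkk4. In the tooth germ, Wnt signals act together with Fgf, Shh, Bmp and Eda signals in the enamel knots, small groups of epithelial cells that do not divide and that set the position of the cusps. At the bell stage the secondary enamel knots are present, and the cells that will become odontoblasts and ameloblasts are starting to take on their fates.

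The 4 libraries held 21972354 to 30540596 reads on the listed genes. The 2 libraries of a genotype were closely alike, with a median standard error of the genotype difference of 0.07 on the log2 scale. The rule left out the sex chromosomes, but their genes bear on every result below. The Y-linked genes Ddx3y, Eif2s3y, Uty and Kdm5d summed to 27.0 and 27.4 FPKM in the Notum-/- libraries and to 0.0121 and 0.0091 FPKM in the Notum+/+ libraries. Xist, the RNA of the inactive X chromosome, had 83.7 and 85.0 FPKM in Notum-/- and 110.8 and 106.8 FPKM in Notum+/+ libraries. Male tissue was thus represented in both Notum-/- libraries and all but missing from both Notum+/+ libraries, so that genotype and the sex of the embryos cannot be told apart at E16.5. The mitochondrially encoded proteins, also outside the rule, summed to 16477 and 15984 FPKM in Notum-/- and 11182 and 12530 FPKM in Notum+/+ libraries, and their part in the results was not tested.

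With limma on log2(FPKM + 0.1), 2144 of the 12183 genes were higher in Notum-/- molars (17.6%) and 2597 were lower (21.3%) at a Benjamini-Hochberg adjusted p under 0.05, which is what is meant by rose, fell or passed here. Most of these differences were small, and only 33 rises and 174 falls exceeded 2-fold. Both Notum-/- values lay above both Notum+/+ values in 4518 of the 12183 genes, and below both in 4919. A lack of overlap given below is thus common to most members and does not single out a gene. Rescaling every library to the same sum of values (TPM) turned the balance to 3053 higher and 1789 lower. No member passed when either Notum-/- library was left out (lowest adjusted p 0.0804 and 0.0850 from limma, with 1 residual degree of freedom), while at an unadjusted p under 0.05 there were 1951 higher and 2516 lower members without replicate 1, and 1855 and 2481 without replicate 2. In these fits the spread came from the Notum+/+ pair alone.

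The GC content of a gene was a strong correlate of its difference between the genotypes. Of 5 equal classes of genes by GC content, the lowest had a median content of 42.7%, and in it the median log2 fold change was 0.27, 48.8% of the genes rose and 3.0% fell. In the highest class (median content 58.2%), the median was -0.26, 2.14% rose and 47.2% fell. The medians between them fell in order, 0.11, -0.03 and -0.15. The gap from the lowest to the highest class was -0.53, against a spread between replicates of 0.04. By library, the gap from each gene's mean was -0.26 in both Notum-/- libraries and 0.31 and 0.22 in the pair of Notum+/+ libraries, so the genotypes did not overlap. The same gap between the genotypes was 0.03 at E14.5. Gene length moved with the difference as well, from a median of -0.20 in the shortest to 0.13 in the longest of 5 classes. The gene groups are therefore counted as deposited and again after a smooth trend on GC content had been subtracted within every library, which left 1170 genes higher (9.6%) and 1426 lower (11.7%). The calls in the same direction in both analyses were 718 rises and 1200 falls. The counts of each gene group below are to be read beside the shares over all members given above.

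**Figure D1:**
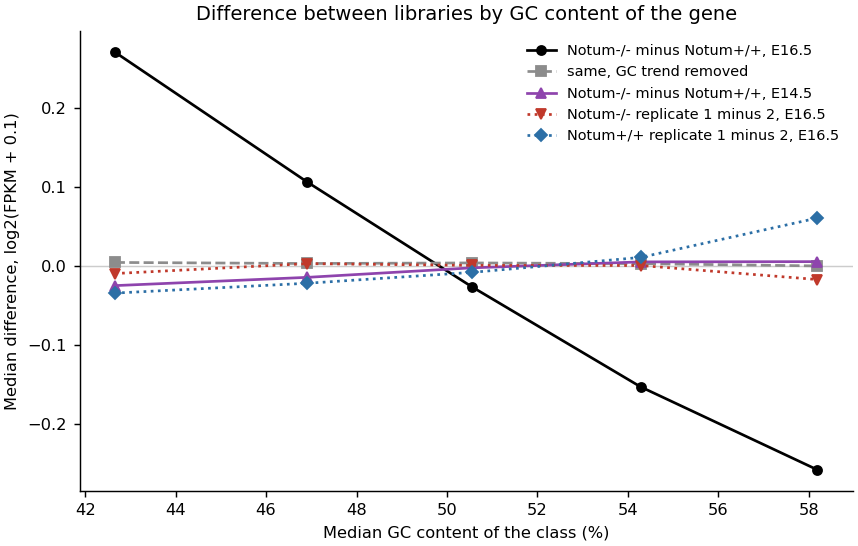
Median difference in log2(FPKM + 0.1) over the members in each of 5 equal classes of GC content, against the median GC content of the class. Only the genotype difference at E16.5 (black) ran from 0.27 down to -0.26, while the replicate differences, the genotype difference at E14.5 and the E16.5 difference after the trend was removed stayed between -0.03 and 0.06.

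Loss of Notum itself was visible in both libraries. Notum had 9.33 and 9.57 FPKM in Notum+/+ and 2.72 and 2.31 FPKM in Notum-/- libraries (log2 fold change -1.87, standard error 0.10, adjusted p = 0.00396 from limma). Both Notum-/- values were far below both Notum+/+ values, and the remaining 26.6% of the Notum+/+ mean cannot be assigned to intact or mutant transcript from values per gene. Notum (ENSMUSG00000042988) lies on the minus strand at chr11:120653788-120661175 of mm10, and the expressed antisense genes Notumos and Myadml2os overlap it. The difference was -1.61 with the GC trend removed.

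A list of mostly secreted inhibitors of Wnt signaling moved in both directions. Of the 15 measured, Notum included, 6 rose and 3 fell (median log2 fold change 0.04, and 0.02 with the GC trend removed). Over all members the median was -0.02, with 17.6% higher and 21.3% lower. Dkk4 had 1.89 and 2.08 FPKM in Notum+/+ and 4.54 and 4.74 FPKM in Notum-/- libraries, more than doubling in both libraries (log2 fold change 1.19, standard error 0.09, adjusted p = 0.00493 from limma). Dkk4 encodes a Dickkopf protein that blocks the Lrp5 and Lrp6 co-receptors and is a Wnt target in ectodermal organs. Its relative Dkk2, made in the mesenchyme, had 11.8 and 12.2 FPKM in Notum+/+ and 21.5 and 21.2 FPKM in Notum-/- libraries (log2 fold change 0.83, standard error 0.04, adjusted p = 0.00396 from limma). Sfrp2, which binds Wnt proteins, rose from 120.0 and 114 to 159 and 165 FPKM (log2 fold change 0.46, adjusted p = 0.00700 from limma). Smaller rises were found for the Wnt-binding proteins Frzb (0.32), Sfrp1 (0.21) and Wif1 (0.19), all as log2 fold changes, of which that of Wif1 did not pass with the GC trend removed (0.15). Sfrp5, another Wnt-binding protein, went the other way, with 7.38 and 7.51 FPKM in Notum+/+ and 3.85 and 4.16 FPKM in Notum-/- libraries (log2 fold change -0.88, standard error 0.07, adjusted p = 0.00505 from limma). Kremen2, a receptor for Dickkopf proteins, fell by 0.48 on the log2 scale as deposited and did not pass with the GC trend removed (adjusted p = 0.0689 from limma). Dkk1 did not pass as deposited (log2 fold change -0.12, adjusted p = 0.104) and was lower with the GC trend removed (-0.26, adjusted p = 0.0302 from limma).

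Among the Wnt ligands and agonists, 7 of 18 fell and 1 rose as deposited, and 3 and 3 did so with the GC trend removed (median log2 fold change -0.17, and 0.002 with the GC trend removed). This list is rich in GC, with a median content of 56.7%. The falls that stayed under both analyses were those of Wnt7a, Wnt3a and the agonist Rspo1. Wnt7a, an epithelial ligand, had 3.83 and 3.31 FPKM in Notum+/+ and 1.44 and 1.33 FPKM in Notum-/- libraries (log2 fold change -1.30, standard error 0.12, adjusted p = 0.00598 from limma). Wnt3a had 9.77 and 9.17 FPKM in Notum+/+ and 4.91 and 4.45 FPKM in Notum-/- libraries (log2 fold change -1.003, standard error 0.07, adjusted p = 0.00489 from limma). Both were well below the Notum+/+ level in each Notum-/- library. Rspo1 fell by 0.54 and by 0.24 with the GC trend removed. Wnt7b, which is expressed in oral epithelium, Wnt4 and Wnt6 fell as deposited (log2 fold changes -0.49, -0.45 and -0.41) but did not pass with the GC trend removed (-0.21, -0.25 and -0.07). Rspo3, an R-spondin that stabilizes Wnt receptors at the cell surface, was the only one of the list to rise as deposited, from 1.75 and 2.12 to 3.53 and 3.12 FPKM (log2 fold change 0.75, standard error 0.13, adjusted p = 0.0186 from limma). Wnt5a, the most abundant ligand of the list and a mesenchymal one, had 33.6 and 32.6 FPKM in Notum+/+ and 36.97 and 35.8 FPKM in Notum-/- libraries and did not pass (log2 fold change 0.14, adjusted p = 0.0655).

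More receptors rose than fell. Of 19 measured, 6 rose and 2 fell as deposited, and 7 rose and 0 fell with the GC trend removed. The median log2 fold change was only 0.03, and 0.12 with the GC trend removed. Over all members 17.6% rose and 21.3% fell as deposited, and 9.6% and 11.7% with the trend removed. With a replicate block added after the trend was removed, 2 receptors rose and 0 fell. Lgr5, an R-spondin receptor and itself a Wnt target, had 3.75 and 3.64 FPKM in Notum+/+ and 7.06 and 7.47 FPKM in Notum-/- libraries (log2 fold change 0.96, standard error 0.06, adjusted p = 0.00444 from limma), and no Notum-/- library came near the Notum+/+ range. Its relative Lgr4 rose by 0.31, the Wnt5a receptor Ror1 by 0.47, the co-receptor Lrp6 by 0.37 and the Frizzled receptors Fzd4 and Fzd9 by 0.35 and 0.49 on the log2 scale. Of these, Lrp6 and Fzd4 did not pass with the GC trend removed (0.21 and 0.25). Fzd5 fell by 0.38 as deposited and was at -0.19 with the trend removed.

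The feedback targets of Wnt/beta-catenin signaling did not move as one group. Of 23 measured, 5 rose and 4 fell (median log2 fold change near 0, and 0.10 with the GC trend removed), with Notum among the falls and Dkk4, Lgr5 and Fgf20 among the rises. These counts lay close to the shares over all members, 17.6% higher and 21.3% lower. Axin2, the scaffold protein most used as a readout of the pathway, had 13.04 and 11.6 FPKM in Notum+/+ and 12.4 and 12.2 FPKM in Notum-/- libraries, and the ranges overlapped (adjusted p = 0.989 from limma). Lef1, a DNA-binding partner of beta-catenin, had 7.05 and 7.77 FPKM in Notum+/+ and 8.69 and 8.59 FPKM in Notum-/- libraries. Its Notum-/- values were both above the Notum+/+ values, but the difference did not pass (log2 fold change 0.22, standard error 0.07, adjusted p = 0.0665 from limma). Sp5, a transcription factor induced by Wnt, had 3.44 and 2.52 FPKM in Notum+/+ and 4.27 and 5.21 FPKM in Notum-/- libraries and passed only with the GC trend removed (0.99, adjusted p = 0.0218, against 0.66, adjusted p = 0.0552 from limma as deposited). Ccnd1, which encodes cyclin D1 and drives entry into the cell cycle, was lower, at 42.2 and 42.6 FPKM in Notum+/+ and 28.1 and 29.4 FPKM in Notum-/- libraries (log2 fold change -0.56, standard error 0.04, adjusted p = 0.00489 from limma). The homeobox gene Msx2 (log2 fold change -0.35) was lower in both analyses, and Tcf7, another partner of beta-catenin (-0.24), only as deposited.

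The promoters of 3 of these readout genes are given because beta-catenin acts on its target genes through TCF/LEF proteins bound to short DNA sites. Each is the RefSeq window of 300 bases, 250 before to 50 after the start, in GRCm38.p6, read 5′ to 3′ on the strand of the gene. Capitals mark matches to the core heptamers CTTTGAA or CTTTGAT and also CTTTGTA or CTTTGTT on either strand, which differ in their final bases and so cannot match at the same position. Sp5 (chr2:70474673-70474972, plus strand) and Dkk1 (chr19:30549447-30549746, minus strand) each held 2 matches, and Axin2 (chr11:108920099-108920398, plus strand) none.
Sp5: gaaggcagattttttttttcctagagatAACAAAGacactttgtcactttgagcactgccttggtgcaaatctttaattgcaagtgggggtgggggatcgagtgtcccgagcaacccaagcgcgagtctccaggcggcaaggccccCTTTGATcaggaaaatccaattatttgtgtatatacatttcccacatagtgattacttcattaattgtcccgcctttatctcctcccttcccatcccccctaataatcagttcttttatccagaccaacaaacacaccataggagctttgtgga
Dkk1: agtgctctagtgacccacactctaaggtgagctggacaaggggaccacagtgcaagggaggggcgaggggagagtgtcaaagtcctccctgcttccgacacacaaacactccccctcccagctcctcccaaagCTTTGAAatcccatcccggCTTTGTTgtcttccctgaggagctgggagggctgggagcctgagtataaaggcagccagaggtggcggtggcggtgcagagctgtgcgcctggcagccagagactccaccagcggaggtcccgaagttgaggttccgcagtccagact
Axin2: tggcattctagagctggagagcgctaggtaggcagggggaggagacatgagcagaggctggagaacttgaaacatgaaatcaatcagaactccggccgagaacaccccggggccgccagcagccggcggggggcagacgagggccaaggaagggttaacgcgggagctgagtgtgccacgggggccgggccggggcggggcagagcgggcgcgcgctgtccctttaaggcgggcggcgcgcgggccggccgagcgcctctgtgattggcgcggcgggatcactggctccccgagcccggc
Of the 23 genes of the list, 15 had a window in the table, and 5 of these 15 had a match in at least 1 window. Counted by window, 5 of their 22 held a match. Over all 32851 windows, 16.9% held a match and 1.94% held at least 2. The match is a description of the sequence and not of binding. Sp5 and Dkk1, which both hold 2 matches, went in opposite directions with the GC trend removed (0.99 and -0.26).

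**Figure D2:**
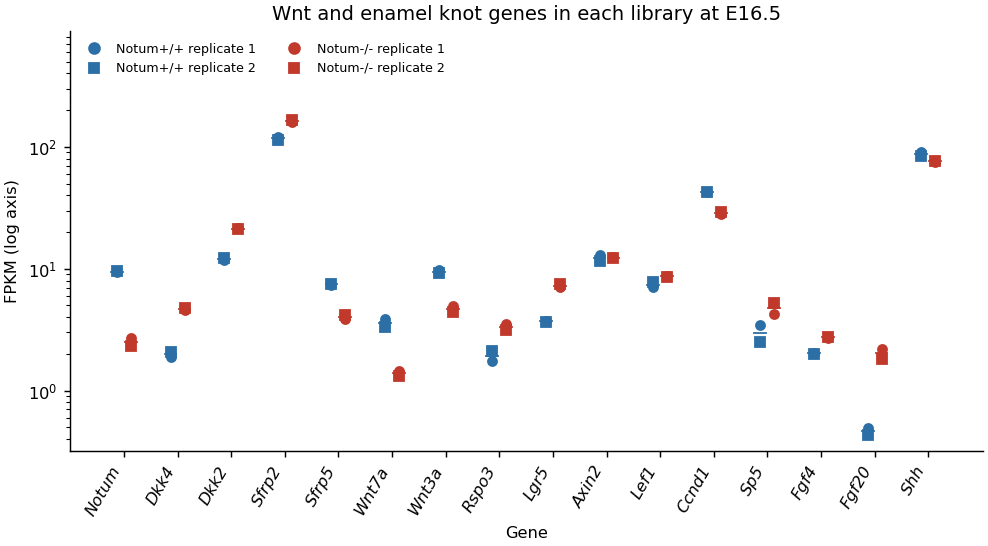
FPKM of Wnt and enamel knot genes on a log axis in each of the 4 libraries at E16.5, with Notum+/+ in blue and Notum-/- in red, circles for replicate 1, squares for replicate 2 and short lines for the means of 2. The Notum-/- values of Notum, Sfrp5, Wnt7a, Wnt3a and Ccnd1 lay below those of Notum+/+, those of Dkk4, Dkk2, Lgr5 and Fgf20 lay above, and those of Axin2 overlapped.

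Of the enamel knot genes, Fgf20 and Fgf4 were higher, while more genes of the list fell than rose as deposited. Fgf20, which acts downstream of Eda and Wnt signals in the knot, had 0.494 and 0.431 FPKM in Notum+/+ and 2.21 and 1.83 FPKM in Notum-/- libraries (log2 fold change 1.91, standard error 0.18, adjusted p = 0.00620 from limma). This was one of the largest rises among the members, on 19 to 114 reads per library, and the more abundant Micu3 overlaps it on the other strand. Fgf4, a marker of both primary and secondary knots, had 2.03 and 2.01 FPKM in Notum+/+ and 2.71 and 2.77 FPKM in Notum-/- libraries (log2 fold change 0.42, standard error 0.09, adjusted p = 0.0275 from limma), with no overlap between the genotypes. Shh, which is made in the knots and the inner dental epithelium, had 90.7 and 84.03 FPKM in Notum+/+ and 74.8 and 77.04 FPKM in Notum-/- libraries and fell slightly (log2 fold change -0.20, standard error 0.05, adjusted p = 0.0499 from limma), but did not pass with the GC trend removed (-0.11). Slit1 (log2 fold change -0.63) and Sp6 (-0.87), a transcription factor of the dental epithelium, were lower as deposited only, and Edar, the Eda receptor, did not pass (-0.20). Over the whole list of 19 genes, 3 rose and 7 fell as deposited, and 4 and 2 with the GC trend removed. The median log2 fold change was -0.13, and -0.006 with the GC trend removed. Dkk4 and Fgf20 are also in the study's own table of genes raised at E16.5, so the list is not independent evidence for them. Without these, 1 of 17 genes rose and 7 fell as deposited (median -0.20). The study's tables, cited here and below, list genes changed over 2-fold in these same libraries. A count or median without their genes is therefore a description and no separate support.

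Fgf ligands of the mesenchyme were also among the rises. Fgf7 had 2.01 and 1.81 FPKM in Notum+/+ and 3.64 and 3.69 FPKM in Notum-/- libraries (log2 fold change 0.91, standard error 0.09, adjusted p = 0.00686 from limma), Fgf2 had 3.296 and 3.69 FPKM in Notum+/+ and 6.096 and 6.38 FPKM in Notum-/- libraries (log2 fold change 0.82, standard error 0.08, adjusted p = 0.00651 from limma), and Fgf10, which supports epithelial growth in the tooth, had 6.56 and 6.52 FPKM in Notum+/+ and 9.25 and 8.74 FPKM in Notum-/- libraries (log2 fold change 0.45, standard error 0.06, adjusted p = 0.00859 from limma). The Notum-/- values of all 3 were above both Notum+/+ values. Fgf10 did not pass with the GC trend removed (0.17, adjusted p = 0.117 from limma). The receptors Fgfr4 and Fgfrl1 rose by 0.32 and 0.28 on the log2 scale, while Fgf1 fell from 1.78 and 1.88 to 0.929 and 0.924 FPKM (log2 fold change -0.91, standard error 0.13, adjusted p = 0.0117 from limma). Fgf1 passed the limit through the Notum+/+ libraries alone. In all, 7 of 16 Fgf ligands and receptors rose and 2 fell, and 6 and 1 did so with the GC trend removed. Of 15 genes that respond to Fgf through ERK, 2 rose and 2 fell as deposited, and 3 rose and 0 fell with the trend removed. Among them, Dusp6, a phosphatase that switches ERK off, had 52.3 and 51.9 FPKM in Notum+/+ and 67.8 and 67.4 FPKM in Notum-/- libraries (0.37, and 0.35 with the GC trend removed), whereas Etv4 fell as deposited (-0.26) and turned to 0.04, without passing, once the trend was removed.

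In the Shh pathway, the co-receptors were higher, and some response genes were lower as deposited. Cdon, a co-receptor, had 10.5 and 10.2 FPKM in Notum+/+ and 15.5 and 15.8 FPKM in Notum-/- libraries (log2 fold change 0.59, standard error 0.04, adjusted p = 0.00492 from limma). Gas1 and Boc, co-receptors as well, rose by 0.40 and 0.31 on the log2 scale and by 0.73 and 0.51 with the GC trend removed. Gli1, the transcription factor that reads out the pathway, had 56.3 and 52.2 FPKM in Notum+/+ and 41.3 and 42.3 FPKM in Notum-/- libraries and fell as deposited (log2 fold change -0.37), but with the GC trend removed it was at -0.13 and did not pass (adjusted p = 0.0946 from limma). Ptch1, the receptor and a target, passed in neither (-0.14, -0.16). Scube3, a secreted partner of Shh and of Tgf-beta ligands, fell in both (-0.47, -0.24). Of 19 measured genes 4 rose and 7 fell as deposited, and 5 and 3 with the trend removed. Over all members 17.6% rose and 21.3% fell as deposited, and 9.6% and 11.7% with the trend removed.

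In the Bmp and Tgf-beta pathway, 13 of 35 genes rose and 7 fell as deposited (9 and 4 with the GC trend removed). Inhba, the subunit of activin A, a mesenchymal signal of the tooth germ, had 16.1 and 15.5 FPKM in Notum+/+ and 27.1 and 27.4 FPKM in Notum-/- libraries (log2 fold change 0.78, standard error 0.04, adjusted p = 0.00396 from limma). Grem1, a secreted Bmp antagonist, had 0.838 and 0.724 FPKM in Notum+/+ and 1.66 and 1.56 FPKM in Notum-/- libraries (log2 fold change 0.96, standard error 0.16, adjusted p = 0.0154 from limma). Both genotypes were well apart for these genes, but Grem1 passed the limit of 1 FPKM through the Notum-/- libraries alone. Its direction was thus in part set by the rule, and its p-value is no separate support. The receptor Bmpr1a rose by 0.44 and by 0.21 with the GC trend removed, Bmp6, which the more abundant Txndc5 overlaps on the other strand, by 0.34 and 0.58, and Bmpr2 only as deposited (0.63, 0.27). Id1 and Id4, targets of Bmp signals that hold back differentiation, fell by 0.54 and 0.44 on the log2 scale. In the Notch pathway 2 of 20 genes rose and 5 fell as deposited, and 4 rose and 2 fell with the trend removed (median log2 fold change -0.13 before and 0.07 after). The shares over all members were 17.6% higher and 21.3% lower as deposited, and 9.6% and 11.7% with the trend removed. Rbpj, the DNA-binding partner of Notch, rose (0.55, 0.33), and the ligand Jag2 (-0.54, -0.23) and the target Hey2 (-0.66, -0.92) fell. In the Eda and NF-kappaB pathway 2 of 15 rose and 2 fell, against 0 and 2 with the trend removed. Among these, the adaptor Edaradd (-0.36, -0.39) and the cytokine gene Ltb (-0.87, -0.55) were lower in both analyses.

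Epithelial genes were lower. Of 25 genes of the dental epithelium 14 fell and 1 rose (median log2 fold change -0.33, and -0.27 with the GC trend removed), and with the GC trend removed 12 fell and 2 rose. Krt5, the main keratin of basal epithelial cells, had 1229 and 1232 FPKM in Notum+/+ and 642 and 664 FPKM in Notum-/- libraries (log2 fold change -0.91, standard error 0.07, adjusted p = 0.00525 from limma), and its partner Krt14 had 404 and 420.0 FPKM in Notum+/+ and 246 and 246 FPKM in Notum-/- libraries (log2 fold change -0.75, standard error 0.05, adjusted p = 0.00468 from limma). Krt15, another basal keratin, fell by 0.76 on the log2 scale. The keratins of the Notum-/- libraries lay between 53.04% and 59.6% of the Notum+/+ means. The falls of several transcription factors and adhesion genes were smaller. Trp63 (p63), needed for stratified epithelia, had 31.9 and 31.4 FPKM in Notum+/+ and 25.8 and 25.9 FPKM in Notum-/- libraries (log2 fold change -0.29, standard error 0.04, adjusted p = 0.00907 from limma). Cdh1, which encodes E-cadherin, fell by 0.36, and Sox2, a marker of epithelial progenitors and of Schwann cell precursors, by 0.53. Pax9, a gene of both mesenchyme and oral epithelium, was the only gene of the list to rise as deposited (0.37, 0.33 with the GC trend removed).

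Genes of desmosomes and hemidesmosomes, the junctions of stratified epithelia, followed the same direction, with 15 of 20 lower and 2 higher (median log2 fold change -0.32, and -0.23 with the GC trend removed), and 11 and 0 once it was removed. Perp, a desmosomal protein, had 179.5 and 194 FPKM in Notum+/+ and 138 and 143 FPKM in Notum-/- libraries (-0.41, -0.47), desmoplakin (Dsp) had 110.3 and 103 FPKM in Notum+/+ and 84.97 and 87.9 FPKM in Notum-/- libraries (-0.30, -0.24), and periplakin (Ppl) and Col17a1 fell by 0.64 and 0.64. The larger falls were in genes of oral epithelium and of cornification, where 15 of 20 genes fell and none rose (median log2 fold change -0.83, and -0.69 with the GC trend removed, where 13 fell). Krt13, the keratin of the layers above the base of the oral mucosa, had 1009 and 1075 FPKM in Notum+/+ and 580.3 and 554 FPKM in Notum-/- libraries (log2 fold change -0.88, standard error 0.08, adjusted p = 0.00569 from limma), and its partner Krt4 had 306 and 316 FPKM in Notum+/+ and 177 and 172 FPKM in Notum-/- libraries (log2 fold change -0.83, standard error 0.05, adjusted p = 0.00414 from limma). Loricrin (Lor), a protein of the cornified envelope, had 12.1 and 10.1 FPKM in Notum+/+ and 3.41 and 3.23 FPKM in Notum-/- libraries (log2 fold change -1.71, standard error 0.10, adjusted p = 0.00420 from limma), and Krt6b, whose reads may be shared with its near-identical neighbors, fell by 1.44. Every Notum-/- value of these genes was below every Notum+/+ value. Of the genes of enamel formation, 8 were measured, 4 fell and none rose (3 and none with the trend removed), and Dlx3, a homeobox gene of ameloblasts and odontoblasts, had 65.8 and 65.7 FPKM in Notum+/+ and 41.2 and 42.4 FPKM in Notum-/- libraries (log2 fold change -0.65, standard error 0.04, adjusted p = 0.00407 from limma).

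In the dental papilla, the mesenchyme from which odontoblasts and pulp arise, genes rose and fell. Of 24 measured, 9 rose and 6 fell (median log2 fold change 0.14, and 0.22 with the GC trend removed, where 10 rose and 4 fell). Among all members 17.6% were higher and 21.3% lower as deposited, and 9.6% and 11.7% with the trend removed. Msx1, a homeobox gene needed for the tooth germ to pass the bud stage, had 59.7 and 57.2 FPKM in Notum+/+ and 73.01 and 78.3 FPKM in Notum-/- libraries (log2 fold change 0.37, standard error 0.05, adjusted p = 0.0118 from limma). Lhx8, a LIM homeobox gene of the same tissue, had 24.9 and 26.6 FPKM in Notum+/+ and 38.9 and 37.6 FPKM in Notum-/- libraries (log2 fold change 0.57, standard error 0.05, adjusted p = 0.00578 from limma), and Runx2, a regulator of bone and tooth mesenchyme, had 17.6 and 17.8 FPKM in Notum+/+ and 25.1 and 24.6 FPKM in Notum-/- libraries (log2 fold change 0.49, standard error 0.04, adjusted p = 0.00525 from limma). The Notum-/- values were above all Notum+/+ values for these 3 genes. Dlx2 and Dlx5, homeobox genes that pattern the jaw and its teeth, fell by 0.50 and 0.55 on the log2 scale, and by 0.24 and 0.34 with the GC trend removed. Barx1, a marker of molar mesenchyme, had 206 and 190.0 FPKM in Notum+/+ and 176 and 187 FPKM in Notum-/- libraries, and its sign depended on the analysis, at -0.13 (adjusted p = 0.202 from limma) as deposited and 0.26 (adjusted p = 0.0274) with the GC trend removed. Dlx3, Dlx4 and Pitx1 belong with Dlx2 and Dlx5 to a list of homeobox genes of the jaws, of which 8 of 14 fell as deposited and 4 with the trend removed. Dlx4 was lower in both (-0.74, -0.54) and Pitx1 as deposited only (-0.50, -0.09).

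Genes of mineralizing cells also divided. Col1a1, the main collagen of bone and dentin, had 1194 and 1105 FPKM in Notum+/+ and 1450.2 and 1478 FPKM in Notum-/- libraries (log2 fold change 0.35, standard error 0.09, adjusted p = 0.0465 from limma). Panx3, a channel protein of odontoblasts and osteoblasts, had 8.68 and 9.37 FPKM in Notum+/+ and 17.00 and 17.5 FPKM in Notum-/- libraries (log2 fold change 0.93, standard error 0.06, adjusted p = 0.00420 from limma), and Sp7 (osterix) rose by 0.25 and by 0.42 with the GC trend removed. Ibsp, bone sialoprotein, rose as deposited only (0.30, 0.14), and Alpl, alkaline phosphatase, fell as deposited only (-0.22, -0.01). Osteocalcin went the other way, with Bglap at 8.63 and 9.41 FPKM in Notum+/+ and 2.995 and 1.83 FPKM in Notum-/- libraries (log2 fold change -1.90, standard error 0.24, adjusted p = 0.00885 from limma) and Bglap2 lower by 1.02, although these genes are near copies and their reads may be divided between them. Of 17 genes of odontoblasts and dentin 7 rose and 4 fell, and of 14 genes of osteoblasts 9 rose and 3 fell. With the GC trend removed, these were 6 and 2 for odontoblasts and 6 and 2 for osteoblasts.

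Many genes of fibrous connective tissue rose, a group with which the dental follicle, the forerunner of the periodontal ligament, is counted. Of 29 genes 22 rose and 3 fell (median log2 fold change 0.57, and 0.46 with the GC trend removed), and 22 rose and 1 fell with the GC trend removed. 10 of them are in the study's own tables of genes changed at E16.5, drawn from these same libraries, so that the list is not independent evidence of its direction. Without these the median was 0.33. 3 of the 29 exceeded 1 FPKM in Notum-/- molars only, and of the other 26, 19 rose. Kera (keratocan), a small leucine-rich proteoglycan that spaces collagen fibrils, had 1.96 and 2.102 FPKM in Notum+/+ and 11.8 and 11.4 FPKM in Notum-/- libraries (log2 fold change 2.46, standard error 0.07, adjusted p = 0.00326 from limma), the largest rise as deposited among members that passed in both analyses. Its relative Ogn had 59.2 and 63.5 FPKM in Notum+/+ and 127 and 127 FPKM in Notum-/- libraries. Aspn, of the same family, had 70.6 and 73.7 FPKM in Notum+/+ and 145 and 147 FPKM in Notum-/- libraries. The log2 fold changes were 1.05 and 1.01 as deposited and 0.57 and 0.46 with the GC trend removed. Lum, lumican, rose by 0.57 and 0.29, and Postn, periostin of the periodontal ligament, by 0.59 and 0.32. Prrx1, a homeobox gene of limb and craniofacial mesenchyme, had 22.1 and 22.1 FPKM in Notum+/+ and 44.2 and 45.1 FPKM in Notum-/- libraries (log2 fold change 1.01, standard error 0.04, adjusted p = 0.00375 from limma), Tbx18 had 0.795 and 0.927 FPKM in Notum+/+ and 2.003 and 1.93 FPKM in Notum-/- libraries (1.11, 1.04) and the cartilage intermediate layer protein Cilp 0.947 and 0.859 FPKM in Notum+/+ and 2.77 and 2.51 FPKM in Notum-/- libraries (1.45, 1.58). Abi3bp, a matrix-binding protein, more than doubled (1.15, 1.01). Igfbp5 was an exception and fell in both (-0.43, -0.40).

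Enzymes that cross-link collagen and proteins of elastic fibers rose in more cases once the GC trend was removed. As deposited, 10 of 27 rose and 5 fell, and with the trend removed 16 rose and none fell (median log2 fold change 0.08, and 0.25 with the GC trend removed). Lysyl oxidase (Lox) had 45.9 and 45.2 FPKM in Notum+/+ and 96.4 and 103 FPKM in Notum-/- libraries (log2 fold change 1.13, standard error 0.05, adjusted p = 0.00396 from limma), and Plod2, which hydroxylates collagen lysines for cross-links, had 20.4 and 21.6 FPKM in Notum+/+ and 31.7 and 32.04 FPKM in Notum-/- libraries (log2 fold change 0.60, standard error 0.04, adjusted p = 0.00489 from limma). Elastin (Eln) rose by 0.30 and 0.53. Serpinh1, a chaperone of collagen, fell as deposited (-0.26, adjusted p = 0.0320 from limma) and not with the trend removed (-0.03). The collagens themselves were 10 higher and 8 lower of 34 as deposited, and 16 and 4 with the trend removed.

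Genes of skeletal muscle, a tissue outside the tooth germ, were higher. Of 24 genes 14 rose and 2 fell (median log2 fold change 0.48, and 0.43 with the GC trend removed, where 15 rose and 0 fell), with none at 0. Their values over the list summed to 1373 and 1345 FPKM in Notum-/- and 933 and 1001 FPKM in Notum+/+ libraries, without overlap. Skeletal actin (Acta1) had 234 and 249 FPKM in Notum+/+ and 443 and 430.1 FPKM in Notum-/- libraries (log2 fold change 0.85, standard error 0.06, adjusted p = 0.00464 from limma), the slow myosin Myh7 had 1.28 and 1.28 FPKM in Notum+/+ and 3.13 and 3.09 FPKM in Notum-/- libraries (1.22, 1.39), titin (Ttn) 1.67 and 1.52 FPKM in Notum+/+ and 3.23 and 3.32 FPKM in Notum-/- libraries (0.996, 0.91), and Actc1 rose by 0.76. Among the largest rises of all members were also Myl3 (2.31), Ckmt2 (1.75) and Ampd1 (1.12), genes of muscle that are in no list here. Myl3 overlaps the more abundant Pth1r on the other strand, and it passed the limit through the Notum-/- libraries alone (Notum+/+ mean 0.293 FPKM). Genes of mast cells, immune cells of connective tissue, rose in 5 of 7 cases and fell in none (median log2 fold change 0.96, and 0.84 with the GC trend removed, where 6 rose), with sums over the list of 77.5 and 76.8 FPKM in Notum-/- and 39.4 and 45.1 FPKM in Notum+/+ libraries. The protease Cpa3 had 5.83 and 8.32 FPKM in Notum+/+ and 19.2 and 17.8 FPKM in Notum-/- libraries (1.39). Another, Cma1, had 9.64 and 10.8 FPKM in Notum+/+ and 24.9 and 25.4 FPKM in Notum-/- libraries (1.30), and Mcpt4 rose by 0.98, while the receptor Kit did not pass (-0.16). 3 of the mast cell genes and 2 of the muscle genes are in the study's tables. Without these, 2 of 4 mast cell genes rose (median 0.53), and 12 of 22 muscle genes (median 0.46).

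Imprinted genes, which are expressed from one parental allele and many of which act on growth, rose in 15 of 21 cases and fell in 3 (median log2 fold change 0.52, and 0.45 with the GC trend removed, where 15 rose and 2 fell). Plagl1, a zinc-finger regulator, had 45.9 and 45.9 FPKM in Notum+/+ and 94.2 and 95.7 FPKM in Notum-/- libraries (log2 fold change 1.05, standard error 0.04, adjusted p = 0.00375 from limma), and Peg10 had 13.8 and 13.1 FPKM in Notum+/+ and 30.3 and 30.3 FPKM in Notum-/- libraries (log2 fold change 1.16, standard error 0.05, adjusted p = 0.00396 from limma). Mest had 194 and 194 FPKM in Notum+/+ and 296 and 299.6 FPKM in Notum-/- libraries (0.62, 0.57), and Cdkn1c, an inhibitor of the cell cycle, had 219 and 217 FPKM in Notum+/+ and 296 and 294 FPKM in Notum-/- libraries (0.43, 0.72). For these 4 genes each Notum-/- library was above both Notum+/+ libraries, as in 4518 of all 12183 members. Asb4 rose by 1.02, and Snrpn fell by 0.99. 3 of the 21 genes are in the study's tables, and without them the median was 0.45. At E14.5 the median of this list was 0.05. None of its genes passed at that age, but few genes of any list did, at most 11 in skeletal muscle.

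**Figure D3:**
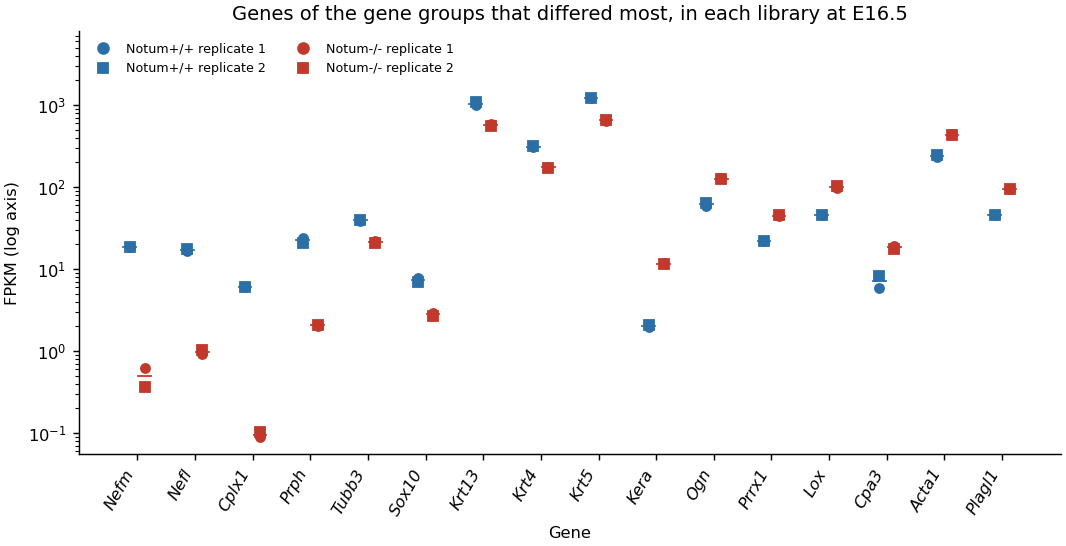
FPKM of genes of several gene groups, on a log axis, in each of the 4 libraries at E16.5, with Notum+/+ in blue, Notum-/- in red, circles for replicate 1, squares for replicate 2 and short lines for means. The genes of neurons, Schwann cells and epithelium were lower and those of connective tissue, mast cells and muscle and the imprinted gene Plagl1 were higher in both Notum-/- libraries.

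Most of the 15 largest falls were in genes of neurons. Of 18 measured genes of sensory neurons 16 fell and none rose (median log2 fold change -2.02, and -2.09 with the GC trend removed, where 16 fell). This count and median cover only the genes past the limit and are given as a description. 8 of the 18 passed it through the Notum+/+ libraries alone, with a Notum-/- mean at or under 1 FPKM, and so had to differ. Of the 10 genes over 1 FPKM in both genotypes, 8 fell (median -1.13). The list held 31 names found among the protein-coding genes, of which 13 were not members and none was at 0 in all 4 libraries. Summed over all 31, the values were 70.0 and 69.6 FPKM in Notum-/- and 223.9 and 230.6 FPKM in Notum+/+ libraries. Nefm and Nefl encode neurofilament proteins and overlap each other. Nefm had 18.4 and 18.8 FPKM in Notum+/+ and 0.629 and 0.367 FPKM in Notum-/- libraries. Nefl had 16.6 and 17.8 FPKM in Notum+/+ and 0.922 and 1.04 FPKM in Notum-/- libraries. The log2 fold changes were -5.004 and -4.001 (adjusted p = 0.00396 and 0.00220 from limma). Both genes were over the limit in the Notum+/+ libraries alone (Notum-/- means 0.498 and 0.983 FPKM), so these p-values are no separate support. Peripherin (Prph), an intermediate filament of peripheral neurons, had 24.2 and 21.04 FPKM in Notum+/+ and 2.03 and 2.08 FPKM in Notum-/- libraries (log2 fold change -3.39, standard error 0.08, adjusted p = 0.00220 from limma), and Cplx1, a protein of transmitter release, 6.097 and 5.99 FPKM in Notum+/+ and 0.08902 and 0.103 FPKM in Notum-/- libraries (-4.97), on as few as 5 reads in Notum-/-. Of the list, Nefh (-4.50), Sncg (-4.40), Stmn3 (-4.24) and Avil (-3.10), which the more abundant Tsfm overlaps, also fell by over 3 on the log2 scale. Among the 15 largest falls of all members were, outside the list, the sensory channel gene P2rx3 (-3.44), which the more abundant Ssrp1 overlaps on the other strand, tau (Mapt, -3.07), Vstm2l (-3.38), Cend1 (-2.84) and Lce3a of the epidermis (-3.86), which had 0 reads in at least 1 library. These genes, too, were over the limit in the Notum+/+ libraries alone. Falls of Tubb3 and Uchl1 were smaller, with Tubb3 at 38.9 and 39.8 FPKM in Notum+/+ and 21.8 and 20.8 FPKM in Notum-/- libraries (-0.88) and Uchl1 at 27.5 and 31.1 FPKM in Notum+/+ and 11.3 and 11.2 FPKM in Notum-/- libraries (-1.37). 8 of the 18 genes are in the study's table of lowered genes, and without them the median was -1.13.

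Genes of Schwann cells, which ensheath peripheral axons, fell as well, in 12 of 17 cases with none higher (median log2 fold change -0.63, and -0.51 with the GC trend removed), and in 9 cases with 1 higher once the GC trend was removed. Sox10, the transcription factor of glia, had 7.86 and 6.98 FPKM in Notum+/+ and 2.92 and 2.71 FPKM in Notum-/- libraries (log2 fold change -1.37, standard error 0.09, adjusted p = 0.00439 from limma), Mbp, myelin basic protein, 7.27 and 6.88 FPKM in Notum+/+ and 2.59 and 2.86 FPKM in Notum-/- libraries (-1.35), and Ngfr 38.4 and 34.6 FPKM in Notum+/+ and 24.5 and 24.6 FPKM in Notum-/- libraries (-0.57). The sums over the list were 143 and 145 FPKM in Notum-/- and 207 and 202 FPKM in Notum+/+ libraries. The signals that guide axons into the tooth and feed them showed no common direction, with 6 of 27 higher and 4 lower (median log2 fold change -0.04, and 0.07 with the GC trend removed, where 5 rose and 3 fell). Sema3d rose (0.80, 0.42) and Sema3b fell (-0.74, -0.49), both encoding secreted semaphorins.

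Osteoclasts resorb the alveolar bone around the growing germ. Of 10 osteoclast genes 6 fell and none rose (median log2 fold change -0.47, and -0.39 with the GC trend removed, where 5 fell). Cathepsin K (Ctsk) had 268 and 290.2 FPKM in Notum+/+ and 173 and 168 FPKM in Notum-/- libraries (log2 fold change -0.71, standard error 0.06, adjusted p = 0.00556 from limma), Acp5 had 83.1 and 91.1 FPKM in Notum+/+ and 49.2 and 46.98 FPKM in Notum-/- libraries (log2 fold change -0.86, standard error 0.06, adjusted p = 0.00473 from limma), and Mmp9 and Itgb3 fell by 0.65 and 0.76 on the log2 scale. Macrophage genes had no common direction, with 4 of 15 higher, among them lysozyme (Lyz2, 0.71), and 1 lower (C1qa, -0.93), or 2 and 1 with the GC trend removed. Genes of endothelium mostly did not pass, with 1 of 20 higher (Sox7, 0.54) and 2 lower (among them Plvap, -0.55) as deposited, and 4 higher and 1 lower with the trend removed. Of 11 genes of pericytes and smooth muscle 4 fell, led by Ndufa4l2 with 94.1 and 103 FPKM in Notum+/+ and 57.8 and 51.1 FPKM in Notum-/- libraries (-0.85) and Kcnj8 (-0.77), and 1 rose, whereas 3 fell and 3 rose with the trend removed. Of 11 cartilage genes 5 fell, led by Col9a3 (-0.93) and Matn4 (-0.87), and 1 rose (4 and 2 with the trend removed). Only 5 erythroid genes were measured, and the globins Hba-a1 and Hbb-bs fell by 0.75 and 0.52, where Hba-a1 shares reads with its near copy. They were the falls of this list as deposited, 2 in all, and 2 genes fell with the trend removed. Of 12 genes that respond to interferon none passed in either direction in either analysis, with a median of 0.05.

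Genes of energy metabolism were lower. Of 26 genes of glycolysis and the response to low oxygen 15 fell and none rose (median log2 fold change -0.37, and -0.21 with the GC trend removed), and with the GC trend removed 12 fell. Hexokinase 2 (Hk2), the first step of glycolysis, had 27.9 and 25.6 FPKM in Notum+/+ and 15.8 and 16.2 FPKM in Notum-/- libraries (log2 fold change -0.74, standard error 0.06, adjusted p = 0.00496 from limma), Hk1 fell by 0.70, and pyruvate kinase (Pkm), the last, had 229.8 and 236 FPKM in Notum+/+ and 163 and 167 FPKM in Notum-/- libraries (-0.49, -0.32). Lactate dehydrogenase (Ldha) fell as deposited only (-0.24, -0.17). Of 78 nuclear genes of oxidative phosphorylation 39 fell and none rose (median log2 fold change -0.31, and -0.27 with the GC trend removed, where 35 fell and 1 rose), the reverse of the mitochondrially encoded genes given above. Atp5k and Uqcr11, small subunits of the respiratory chain and its ATP synthase, fell most, by 2.14 and 1.52 on the log2 scale. Many of these genes are short, with a median length of 1709.5 bases, and with the trends on GC content and length both removed 32 fell and 5 rose. With the length trend alone removed, the median was -0.10, with 28 lower and 6 higher. Of 77 cytosolic ribosomal protein genes 36 fell and 2 rose (29 and 1 with the GC trend removed, 27 and 7 with both trends removed), with Rpl23a (-1.29) and Rpl28 (-1.25) among the most reduced, although reads of such genes may be shared with processed copies. Libraries of a genotype differed here as well, with sums over all 84 listed genes of 22790 and 25958 FPKM in Notum+/+ and 19788 and 18555 FPKM in Notum-/-. With the GC trend removed and a replicate block, 14 ribosomal genes fell and 0 rose. The list of immediate early and stress genes had 11 of 25 lower and 1 higher as deposited, and 7 and 3 with the GC trend removed. The heat shock gene Hspa1a (-1.16), whose reads may be shared with its near copy, Ier5 (-0.86) and Zfp36 (-0.78) led the falls, and Egr3 was the rise (0.88, 1.01).

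Some groups moved as deposited and hardly at all with the GC trend removed. Of 25 genes of cell division, whose median GC content is 46.7%, 7 rose and 4 fell as deposited, and 1 and 1 with the trend removed (median log2 fold change 0.10, and -0.04 with the GC trend removed). Bub1, a kinase of the spindle checkpoint, went from 0.45 to 0.13, Kif20b from 0.38 to 0.002, topoisomerase Top2a from 0.20 to -0.04 and the polo-like kinase Plk1 from -0.38 to -0.17, and none of them passed with the trend removed. Zinc-finger genes named Zfp or Zkscan, poor in GC as well (46.2%), had 82 of 320 higher and 32 lower as deposited, and 17 and 12 with the trend removed. Zfp993 (1.48, 1.11) and Zfp524 (-1.11, -0.82), which the more abundant Fiz1 overlaps, were among those that passed in both, in opposite directions. Each was over the limit in only 1 genotype, Zfp993 in Notum-/- (Notum+/+ mean 0.793 FPKM) and Zfp524 in Notum+/+ libraries. Genes of DNA replication had 2 higher and 3 lower of 28 (4 and 1 with the trend removed), and those of cholesterol synthesis 2 and 3 of 20 (0 and 1). Of the 19 histone genes measured, 6 fell as deposited and 3 with the trend removed.

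**Figure D4:**
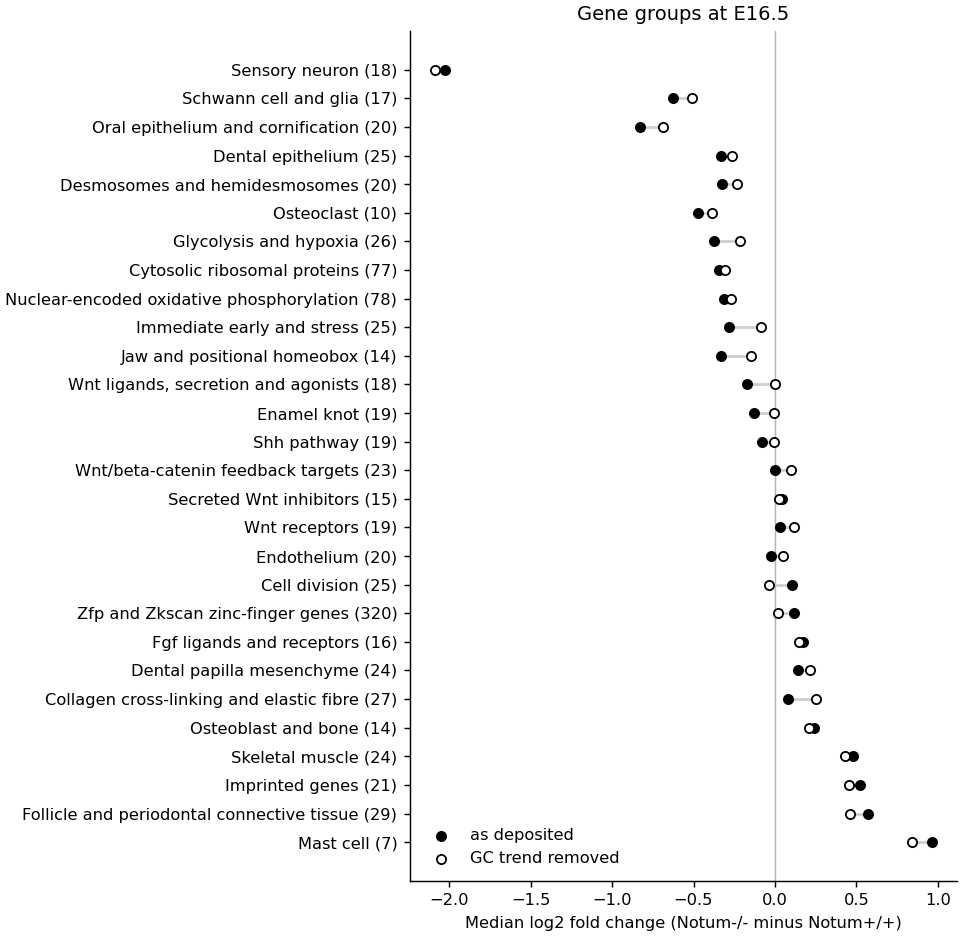
Median log2 fold change (Notum-/- minus Notum+/+, E16.5) over the measured genes of 28 gene groups, the number of genes in parentheses, as deposited (filled) and with the GC trend removed (open). Sensory neuron genes were at -2.02 and -2.09, over 18 genes of which 8 passed the limit through Notum+/+ alone, the connective tissue, imprinted, muscle and mast cell groups lay above 0 in both analyses, and the cell division and zinc-finger groups moved to near 0.

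Comparing E16.5 with E14.5, the cap stage, showed how much of this was particular to the later age. The genotype difference itself differed between the ages for 3049 of the members (25%), with 1405 more positive and 1644 more negative at E16.5 by limma's interaction term. In TPM the same counts were 2492 and 1052, and with the GC trend removed 781 and 1023. The genes of sensory neurons were near even at E14.5 (median -0.10), and 14 of 18 differed between the ages, all more negative at E16.5. As 8 of the 18 passed the limit through the Notum+/+ libraries of E16.5 alone, this direction was in part set by the rule. Of 20 genes of oral epithelium and cornification 15 were more negative at E16.5, and 2, Krt13 and Krt4, had passed at E14.5, as rises. Krt13 had risen by 3.07 in Notum-/- molars at E14.5 and fell by 0.88 at E16.5 (difference -3.95, standard error 0.07, adjusted p = 9.83e-06). Krt5 went from 0.42 to -0.91 (difference -1.33, adjusted p = 0.00157). Skeletal muscle was higher at both ages, less so at E16.5 (median 1.17 at E14.5), where 18 of 24 genes had a more negative difference. The connective tissue genes were more positive at E16.5 in 16 of 29 cases and more negative in 2, and the imprinted genes in 12 and 3 of 21.

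For the Wnt and enamel knot genes the 2 ages differed for some members. Lgr5 was at 0.02 at E14.5 and 0.96 at E16.5 (difference 0.94, standard error 0.08, adjusted p = 0.00268 from limma). Dkk2 differed by 0.71 (adjusted p = 0.00387), Fgf20 by 1.42 (adjusted p = 0.00984) and Inhba by 0.83 (adjusted p = 0.00268), all more positive at E16.5. Unlike those of Lgr5, Dkk2 and Inhba, the difference of Fgf20 did not pass in every setting tried. Msx2 (-0.83, adjusted p = 0.00199) and Id1 (-0.84, adjusted p = 0.00344) were more negative at E16.5. A difference between the ages did not pass for Notum (-0.82, standard error 0.24, adjusted p = 0.0549), Dkk4 (0.26, 0.34, 0.627), Axin2 (-0.29, 0.13, 0.156) or Lef1 (-0.22, 0.13, 0.272), and these standard errors leave room for sizable differences. The makeup of the pools also differed between the ages, since the 4 Y-linked genes reached a sum of 41.2 and 38.9 FPKM in Notum-/- and of 15.01 and 15.7 FPKM in Notum+/+ molars at E14.5, so that a difference between the ages and one in the sex of the embryos cannot be told apart.

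**Figure D5:**
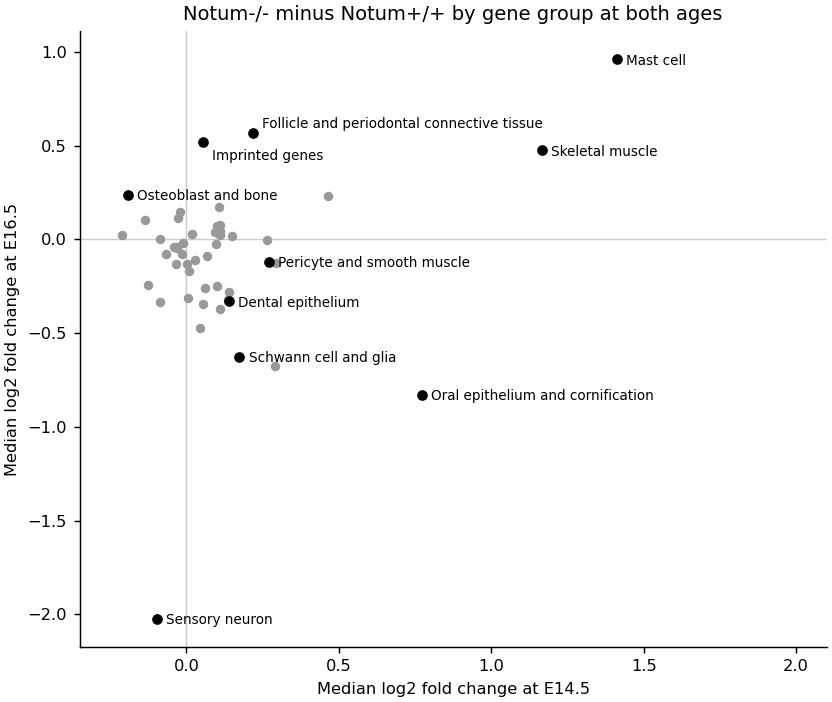
Median log2 fold change (Notum-/- minus Notum+/+) of each gene group with at least 5 measured genes at E14.5 (horizontal) and at E16.5 (vertical), 1 point per group, with 10 groups named. Sensory neuron genes were near 0 at E14.5 and at -2.02 at E16.5, over 18 genes of which 8 passed the limit through Notum+/+ alone. Oral epithelium genes were on opposite sides of 0 at the 2 ages, and mast cell and muscle genes were above 0 at both.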

How the data were processed

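RNA was taken from molar tooth germs of Notum-/- and Notum+/+ embryos at E14.5 and E16.5, 2 libraries per group, of poly-A selected mRNA. The authors aligned the reads to mm10 with HISAT2 2.0.5 and counted them per gene with featureCounts 1.5.0-p3, and deposited FPKM values for 54532 genes. Whether counting used the strand is not given in the sources used here, and 35 of the 178 genes named overlap another gene expressed over 1 FPKM. Columns not used numbered 0. Groups were taken from the sample labels. Nothing in the labels ties a library to particular animals, so p-values measure the spread between these libraries.

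From the deposited FPKM values, log2(FPKM + 0.1) was fitted with limma 3.58.1 (R 4.3.3), with a variance trend and moderated statistics, on the 4 libraries of E16.5 over 18570 genes with a mean FPKM over 0.3. Two-sided p-values were adjusted after Benjamini and Hochberg over all of these. An exact permutation test of 2 against 2 libraries cannot go below p = 0.333. The difference between ages came from the interaction term of a fit of all 8 libraries. GC content was taken from GENCODE M21 transcripts of GRCm38, the assembly of mm10, for 12175 of the 12183 members. Its trend was removed per library by lowess with a span of 0.3, and the 8 members without a value were left unadjusted. Values per read were whole multiples, from which reads per gene were rebuilt. The fitting was tested on simulated data. Genes were named if they belonged to a signaling or tooth tissue list, were among the most abundant or most changed of another list, or were among the largest changes. The members and lists were chosen with earlier results of these data known. Alternatives changed the pseudocount, filter, scaling, variance trend, replicate block, trends on GC content and length, and libraries used.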

Additional observations from a re-analysis of the deposited data

Results flagged for a closer look

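The genotype difference of 44 named genes differed between E14.5 and E16.5 in all 16 settings of limma's interaction test, of 137 of the 178 named genes that passed as deposited and 190 members that passed in all settings. Each value is the log2 fold change (Notum-/- minus Notum+/+) at E16.5 minus that at E14.5. Among genes of neurons, the differences were -4.24 for Nefm, -3.94 for Nefl, -3.81 for Nefh, -5.04 for Cplx1, -4.28 for Sncg, -4.10 for Stmn3, -3.46 for Prph, -2.57 for Avil, -2.56 for P2rx3, -3.08 for Mapt, -3.39 for Vstm2l, -2.84 for Cend1 and -1.09 for Tubb3. All of these but Prph and Tubb3 passed the limit through the Notum+/+ libraries of E16.5 alone, so their negative differences were in part set by the rule. Among genes of Schwann cells, the differences were -1.62 for Mbp and -1.49 for Sox10. Among genes of epithelium, the differences were -3.95 for Krt13, -3.33 for Krt4, -1.33 for Krt5, -1.24 for Krt15, -1.10 for Krt14 and -1.06 for Ppl. Among genes of bone, cartilage, connective tissue and osteoclasts, the differences were -3.15 for Bglap, -1.23 for Col9a3, -1.22 for Matn4, -0.88 for Ctsk, 2.02 for Kera, 1.22 for Panx3, 0.87 for Lox, 1.27 for Prrx1, 0.68 for Runx2 and 0.61 for Sp7. Among signaling genes, the differences were 0.94 for Lgr5, 0.71 for Dkk2, 0.83 for Inhba, -0.84 for Id1 and -0.83 for Msx2. Among imprinted genes, the differences were 1.41 for Asb4, 1.36 for Peg10 and 1.09 for Plagl1. Among other genes, the differences were 1.44 for Gm4950, -0.93 for Hk1, -1.40 for Kcnj8, -2.11 for Ndufa4l2 and -1.82 for Rpl23a. Krt13 and Krt4 had risen at E14.5 and fell at E16.5. The makeup of the pools by sex and the GC trend also differed between the ages, and their part in these differences was not tested.

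In genes outside the members, the Y-linked genes Ddx3y, Eif2s3y, Uty and Kdm5d summed to 27.0215 and 27.4241 FPKM in the Notum-/- libraries at E16.5, far above the Notum+/+ libraries at 0.0121 and 0.0091 FPKM. The mitochondrially encoded proteins summed to 16476.5082 and 15983.927 FPKM, above the Notum+/+ libraries at 11182 and 12530 FPKM. At E14.5 the Notum-/- libraries had 18671 and 14656 FPKM and the Notum+/+ libraries 14697 and 15585 FPKM of these proteins, which overlap.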

How the results depend on the processing

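Against 2144 members higher and 2597 lower, the counts were 1071 and 1355 without a variance trend, 1170 and 1426 with the GC trend removed, and 1387 and 1509 with the trends on GC content and length removed, an alternative chosen after seeing the data. The differences between replicates 1 and 2 were nearly uncorrelated between the genotypes (correlation of deviations -0.075 over 2 pairs). With 2 pairs this cannot show whether the replicate numbers pair the libraries by litter or batch. With a replicate block there were 1314 higher and 1798 lower, 267 and 565 with the GC trend also removed, and 477 and 691 with both trends removed. Leaving out 1 library gave 0 to 1046 higher and 0 to 1350 lower members. The 0 belongs to each Notum-/- library, and the counts were 788 and 1146 without Notum+/+ replicate 1. TPM moved the share of higher calls from 45.2% to 63.1%, and the GC trend with the block to 32.1%. The GC gap of -0.53 became -0.46 with a pseudocount of 1, -0.43 with the length trend removed, and -0.48 to -0.57 without 1 library.

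The 3049 differences between the ages became 332 with the block (without that of Fgf20, adjusted p = 0.0522 from limma), 1804 with the GC trend removed, 259 with both, and 680 to 2721 without 1 library. Of the 178 named genes, 169 passed, none of them in every setting because of the fits without a Notum-/- library. Of 50 list medians 29 kept one sign in all settings. Signs turned for Axin2 (0.0799 in TPM, 0.197 with the GC trend and 0.161 with both trends removed, 0.0003 by voom on rebuilt reads, -0.0842 to 0.081 without 1 library), Barx1 (0.256 with the GC, 0.103 with the length and 0.3246 with both trends removed), Dkk1 (0.0107 with the length trend removed), Etv4 (0.0374 and 0.0448 with the GC and both trends removed), Kif20b (-0.016) and Serpinh1 (0.0084) with both, and Top2a (-0.0397 and -0.075). The cause was not tested. Low counts limit, for example, Cplx1 (5 to 345 reads per library), Sncg (6 to 240) and Lce3a (0 to 58).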
